A study of Mus musculus with 11 samples.

Results

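The Kruppel-like factors examined here were 10 genes, Klf2, Klf3, Klf4, Klf5, Klf6, Klf7, Klf9, Klf10, Klf13 and Klf15, taken by name from the probes of a one-colour mouse expression array. They were 10 of the 20284 genes that the probes could be matched to, and each had 1 probe among 55681 besides controls. All 10 probes passed the filter on dim probes, and all were well above background on all 11 arrays, so the values of these 10 genes are measured levels and not bounds. The levels were followed across otospheres (OS), the cochlear sensory epithelium (CSE) from which they were grown, and mouse embryonic stem cells (ESCs). Otospheres are floating spheres of cells, here passaged 1 time, from dissociated cochlear cells of newborn mice, cultured with bFGF at 10 ng/ml and IGF1 at 50 ng/ml for 4 to 5 days before and again after the passage. By the paper's methods the sphere medium also held N2, B27 and heparan sulfate, and the ESC medium held fetal bovine serum. The CSE was dissected tissue, with 20 cochleae pooled per dissection, and it holds several cell types. The ESC group was 2 lines at passage 13 kept without feeder cells in LIF at 1000 U/ml, G4-2 (ESC1) and D3 (ESC2), so each line was 1 sample. No transgene or drug differed between the groups by the labels, but age, medium and culture did. In the paper the mice were of the ICR strain, and it names strain as a possible source of variance among its ESCs. Strain therefore cannot be told apart from group in the comparisons with ESCs. The labels do not say whether the replicates came from separate preparations, so p-values measure only the spread between these samples.

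The 6 OS arrays counted as 4 samples, because OS1 with OS2 and OS4 with OS5 differed by less than the noise between spots of 1 array and were averaged (OS1+2 and OS4+5). With 3 CSE and 2 ESC samples this gave 9 samples in all. The arrays lay on 2 slides that were scanned separately, the first with ESC1, OS1+2, OS3, CSE1 and CSE2 and the second with ESC2, OS4+5, OS6 and CSE3. Of 7 ESC markers, 6 were higher in ESCs than in OS, and all 8 cochlear epithelial markers were higher in CSE than in ESCs. The exception was Nanog, whose only named probe read 8.38 on the log2 scale in ESCs and 9.82 in OS, without a call. The paper lists Nanog among the genes high in ESCs alone, so these values cannot be read as the level of Nanog RNA. The share of spots well above background was 55.1% to 71.6% per array, and no spot was saturated.

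Kruppel-like factors are transcription factors with C2H2 zinc fingers at the carboxyl end that bind CACCC and GC-rich boxes, and they share these sites with the Sp factors. Some members mainly activate and others mainly repress, and members that are present together can oppose or replace each other at the same site. Klf2, Klf4 and Klf5 act in the self-renewal network of mouse ESCs, and Klf4 is one of the factors used to reprogram somatic cells. Outside ESCs, Klf4 and Klf5 are known in epithelia, Klf2 in endothelium, Klf6 and Klf7 in axon growth, and Klf9 and Klf15 as targets of glucocorticoids.

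Promoter windows of 8 of the 10 genes were matched by symbol in RefSeq's annotation of GRCm38.p6, each 300 bases long, mostly upstream of the start. They were searched on both strands for the family's own sites, the CACCC box (CACCC or GGGTG) and the GC box (GGGCGG or CCGCCC). The 4 windows below are shown because Klf2, Klf4 and Klf6 were the members whose levels differed most between samples of one group, while Klf3 was among the steadiest and its window held the most boxes. They are written 5′ to 3′ along the gene, and capitals mark the boxes of both kinds.
Klf2 (chr8:72318812-72319111, + strand): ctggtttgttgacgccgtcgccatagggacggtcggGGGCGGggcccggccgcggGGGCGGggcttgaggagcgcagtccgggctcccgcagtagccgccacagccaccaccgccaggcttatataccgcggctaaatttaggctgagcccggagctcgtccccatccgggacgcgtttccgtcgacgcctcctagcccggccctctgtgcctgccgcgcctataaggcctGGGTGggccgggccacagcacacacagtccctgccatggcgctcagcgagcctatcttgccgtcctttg
Klf3 (chr5:64803271-64803570, + strand): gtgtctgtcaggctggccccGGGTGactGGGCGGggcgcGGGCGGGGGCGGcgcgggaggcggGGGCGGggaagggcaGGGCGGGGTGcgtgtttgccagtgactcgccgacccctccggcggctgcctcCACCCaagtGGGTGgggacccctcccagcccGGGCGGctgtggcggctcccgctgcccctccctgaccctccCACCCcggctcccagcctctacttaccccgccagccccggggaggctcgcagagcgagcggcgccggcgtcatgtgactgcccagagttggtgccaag
Klf4 (chr4:55532426-55532725, - strand): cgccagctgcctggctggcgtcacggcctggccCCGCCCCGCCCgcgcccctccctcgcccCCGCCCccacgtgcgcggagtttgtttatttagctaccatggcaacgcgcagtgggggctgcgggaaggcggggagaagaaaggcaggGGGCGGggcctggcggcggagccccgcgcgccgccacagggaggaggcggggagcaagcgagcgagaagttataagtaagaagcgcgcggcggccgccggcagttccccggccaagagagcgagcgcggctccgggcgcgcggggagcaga
Klf6 (chr13:5861239-5861538, + strand): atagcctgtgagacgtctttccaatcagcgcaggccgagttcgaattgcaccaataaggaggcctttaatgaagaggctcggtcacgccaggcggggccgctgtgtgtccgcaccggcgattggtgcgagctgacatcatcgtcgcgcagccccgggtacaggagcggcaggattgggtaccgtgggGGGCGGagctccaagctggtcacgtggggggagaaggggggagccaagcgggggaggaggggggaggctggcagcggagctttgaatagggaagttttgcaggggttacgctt

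The Klf3 window held 5 CACCC boxes and 6 GC boxes, and 1 box of each kind overlapped. At least 5 CACCC boxes were found in 1.02% of all 32851 windows, and at least 6 GC boxes in 1.35%. The Klf4 window held 4 GC boxes, which 5.49% of windows reached, and no CACCC box. The Klf2 window held 2 GC boxes, 1 CACCC box and, from base 133 of the window, the only MEF2 site among the 8 windows, a motif that 0.557% of all windows held. The Klf6 window held 1 GC box and no CACCC box. Across the 8 windows, 6 held a CACCC box, against 57.5% of all windows, and 7 held a GC box, against 35.7%. No CArG box, AP-1 site (TGACTCA) or cAMP response element (TGACGTCA) was matched in any of the 8, motifs that 1.63%, 5.2% and 1.79% of all windows held. A match says only that these letters are in this window.

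The 3 groups differed for 7 of the 10 genes by limma's F-test at an adjusted p under 0.05, which 33.8% of all probes passed. The exceptions were Klf4, Klf13 and Klf15. The group means of Klf2 were closest to a pattern high in ESCs alone, those of Klf3 and Klf7 to one high in OS and CSE, those of Klf5, Klf9 and Klf10 to one high in ESCs and OS, and those of Klf6 to one high in OS alone. Klf2 and Klf5, which act together in ESCs, thus fell under different patterns.

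**Figure D1:**
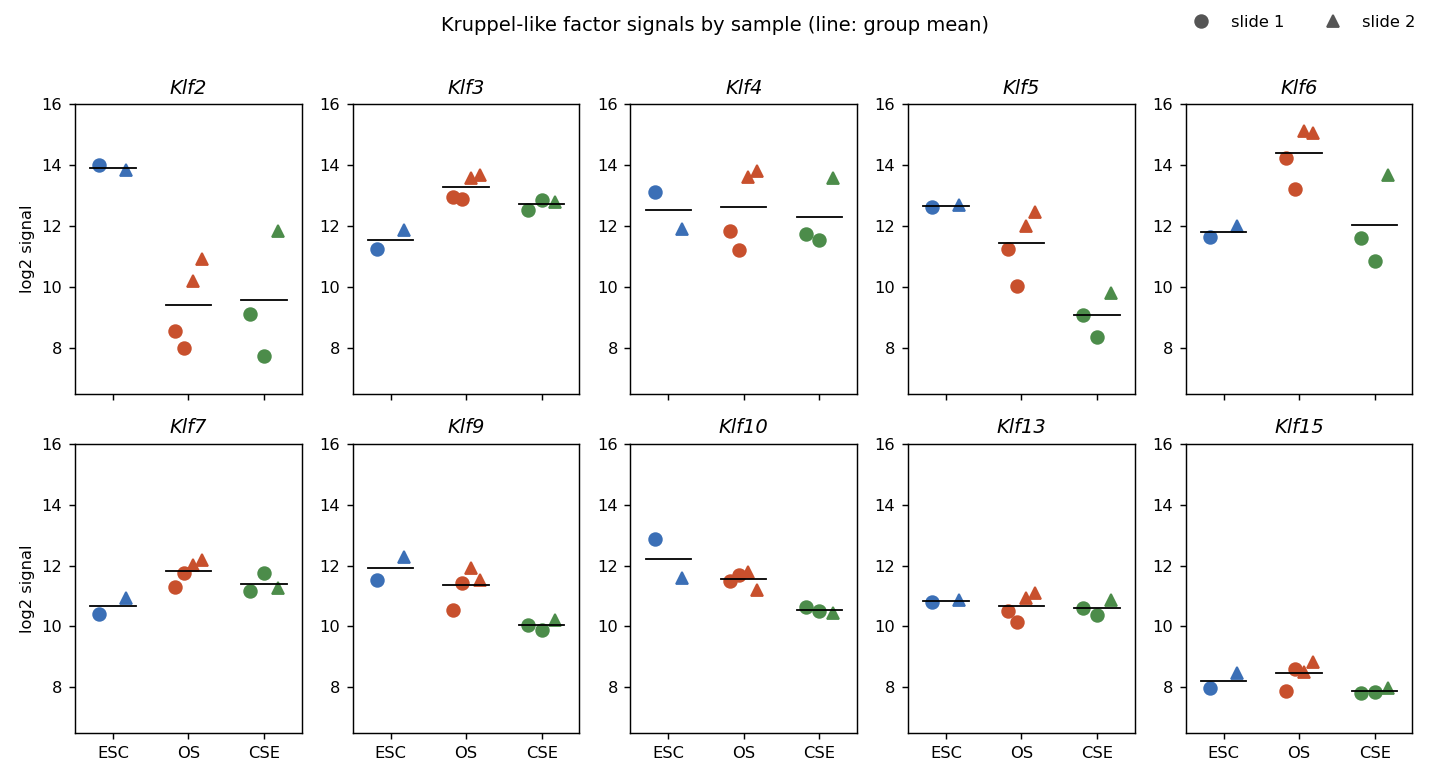
Level of each Kruppel-like factor on the log2 scale in the 9 samples, with ESC, OS and CSE along the x axis, circles for slide 1, triangles for slide 2 and a line at the group mean. Klf2 is above 13.8 in both ESC samples and below 12 in the other 7, and in Klf2, Klf4 and Klf6 the slide 2 triangles of OS and CSE sit above the circles of their own group.

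Klf2, which is known from quiescent endothelium and T cells and from ESCs, was the gene with the widest range. Its log2 level was 14.01 in ESC1 and 13.83 in ESC2, 8.54, 7.98, 10.20 and 10.91 in OS1+2, OS3, OS4+5 and OS6, and 9.11, 7.75 and 11.84 in CSE1, CSE2 and CSE3. Both ESC samples stood above all others, while OS and CSE overlapped over most of their range. Before normalization the spot read 22252 and 17154 in the ESC arrays, 191 to 2173.5 in the OS arrays and 251.5 to 2593 in the CSE arrays. Klf2 was 22.8-fold lower in OS than in ESCs, a log2 difference of -4.51 ± 1.12 (SE, limma adjusted p = 0.0151), and 20.5-fold lower in CSE than in ESCs, -4.35 ± 1.18 (adjusted p = 0.0221). Between OS and CSE the log2 difference was -0.16, with a 95% interval of -2.39 to 2.07 that includes several-fold differences in either direction. Without CSE3 the log2 difference between OS and CSE was 0.98 (limma adjusted p = 0.644). Each ESC call was lost when either ESC sample was left out, with adjusted p of 0.0767 and 0.0674 for OS and 0.0924 and 0.0806 for CSE. In these and all later fits without 1 ESC sample the other is alone and is assumed to vary like OS and CSE. The CSE call was also lost without CSE1 (0.0669) or CSE2 (0.0565).

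The 9 endothelial markers bear on Klf2 as the genes of another cell type present in dissected tissue. Their mean log2 level was 10.06 to 10.84 in the CSE samples, 7.28 to 8.61 in OS and 8.47 to 8.54 in ESCs, and 5 of 9 were lower in OS than in CSE (Cldn5 with a log2 difference of -6.23, for example, with Tie1 and Esam well above background on no OS array). In bulk RNA fewer cells of a type and less RNA per cell cannot be told apart. Of 7 measured genes that Klf2 is known to control in endothelium under flow, Edn1, which encodes a vasoconstrictor peptide, was higher in OS than in CSE (log2 difference 1.77, adjusted p = 0.0390) and Tek, the angiopoietin receptor, was lower (-1.50, adjusted p = 0.0287, well above background on 5 of 6 OS arrays, as was Cldn5), while 5 were not called. The part of endothelial RNA in the Klf2 levels was not tested.

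Klf4, a reprogramming factor and a regulator of epithelial barriers, differed little between group means but widely within groups. It read 13.12 in ESC1 and 11.91 in ESC2, 11.84, 11.21, 13.61 and 13.83 in the 4 OS samples in the order above, and 11.76, 11.53 and 13.57 in CSE1 to CSE3. In OS and CSE the slide 2 samples were the high ones, and in ESCs the slide 1 sample was, so the 3 groups overlapped fully. The log2 difference was 0.34 ± 0.75 (SE) between OS and CSE, 0.11 ± 0.85 between OS and ESCs and -0.23 ± 0.90 between CSE and ESCs, and limma called none (adjusted p of 0.894, 0.947 and 0.889). Within slide 1 the log2 difference from ESC1 to OS was -1.60, and within slide 2 that from ESC2 to OS was 1.81. That change between the slides was itself called (limma test of group by slide, adjusted p = 0.0370), as it was for 1.83% of all probes. Each slide holds 1 ESC sample, so the test takes its spread from OS and CSE and assumes that ESCs vary alike.

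Klf5, known from proliferating epithelial cells of the intestinal crypt and from ESCs, was high in ESCs and OS and low in CSE. It read 12.63 and 12.69 in the ESC samples, 11.24, 10.02, 12.02 and 12.45 in OS, and 9.09, 8.37 and 9.82 in CSE. The 3 groups did not overlap, with every OS sample between the ESC and the CSE samples. Klf5 was higher in OS than in CSE by 2.34 ± 0.56 (SE, limma adjusted p = 0.0288), 5.07-fold, and 11.9-fold lower in CSE than in ESCs, -3.57 ± 0.67 (adjusted p = 0.00378). The log2 difference of OS minus ESCs, -1.23 ± 0.63, was not called (adjusted p = 0.196). Within slide 1 OS exceeded CSE by 1.90 and within slide 2 by 2.42. The call between OS and CSE was lost without OS1+2 (adjusted p = 0.0565), OS4+5 (0.0814), OS6 (0.0563), CSE1 (0.0985) or CSE2 (0.0988), while the log2 difference stayed between 1.98 and 2.40 in these. It was also lost with every array separate and a replicate block (1.74, limma adjusted p = 0.0949).

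Klf6, an early response gene of injured tissue, was highest in OS. It read 11.63 and 12.00 in ESCs, 14.24, 13.22, 15.14 and 15.07 in OS, and 11.62, 10.84 and 13.67 in CSE. All OS samples were above both ESC samples and above CSE1 and CSE2, but CSE3 was above OS3. Klf6 was higher in OS than in ESCs by 2.60 ± 0.77 (SE, limma adjusted p = 0.0341), 6.06-fold. Against CSE the difference of 2.38 ± 0.68, 5.20-fold, missed the threshold (adjusted p = 0.0588), and it passed when the slide was blocked (2.13, adjusted p = 0.0154), without CSE3 (3.19, adjusted p = 0.0145) or without OS3 (2.78, adjusted p = 0.0328). The call against ESCs was lost in 8 of the 18 alternatives. Among them were the fits without ESC1, ESC2, OS1+2 (limma adjusted p = 0.0572), OS4+5 (0.0793), OS6 (0.0699) or CSE1 (0.0512), with log2 differences of 2.36 to 2.79. Scaling the arrays to their 75th percentile was another (2.13, adjusted p = 0.0774). Over the 18 alternatives the log2 difference went down to 1.85 and the adjusted p up to 0.188.

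Klf10, first described as an early gene induced by TGF-beta, read 12.88 and 11.58 in ESCs, 11.50, 11.68, 11.79 and 11.20 in OS, and 10.63, 10.51 and 10.46 in CSE. All 3 CSE samples were below the other 6, and ESC2 fell within the OS range. Klf10 was 3.24-fold lower in CSE than in ESCs, a log2 difference of -1.70 ± 0.35 (SE, limma adjusted p = 0.00636). The difference of -0.69 ± 0.33 between OS and ESCs was not called (adjusted p = 0.171), and without ESC2 it was -1.34 (adjusted p = 0.00742), with ESC1 as a lone sample assumed to vary like OS and CSE. Between OS and CSE the difference of 1.01 ± 0.29, 2.01-fold, was alike on both slides (1.02 and 1.04) but missed the threshold (adjusted p = 0.0628), and blocking the slide brought it past (adjusted p = 0.0418). It also passed without either ESC sample (adjusted p = 0.00916 in both), which do not enter the difference itself but only its estimated spread.

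Klf9 and Klf15 are both known to be induced by glucocorticoids. Klf9 read 11.54 and 12.29 in ESCs, 10.54, 11.43, 11.91 and 11.52 in OS, and 10.06, 9.87 and 10.22 in CSE. Every OS sample was above every CSE sample, with OS1+2 nearest to them. Klf9 was higher in OS than in CSE by 1.30 ± 0.32 (SE, limma adjusted p = 0.0338), 2.47-fold, and 3.64-fold lower in CSE than in ESCs, -1.86 ± 0.39 (adjusted p = 0.00638). The call between OS and CSE was lost without any one of OS3, OS4+5, OS6, CSE1, CSE2 or CSE3 (adjusted p of 0.0661 to 0.110), with log2 differences of 1.12 to 1.39, and under scaling to the 75th percentile (1.40, adjusted p = 0.0822). In all it was lost in 8 of the 18 alternatives, over which the log2 difference went down to 0.79 and limma's adjusted p up to 0.165. Also lost was the call between CSE and ESCs without ESC2 (adjusted p = 0.0518).

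Klf15, a regulator of amino acid and glucose metabolism, read 7.97 and 8.46 in ESCs, 7.87, 8.60, 8.52 and 8.83 in OS, and 7.80, 7.84 and 7.97 in CSE. OS3, OS4+5 and OS6 were above all other samples and OS1+2 was within the CSE range. The difference of 0.58 ± 0.24 between OS and CSE was not called (adjusted p = 0.191), and it was 0.78 (adjusted p = 0.0475) without OS1+2. Of 11 genes induced by glucocorticoids, 4 were higher in OS than in CSE (Pdk4, Mt2, Cebpd and Errfi1), 1 was lower (Hif3a), and the median difference was -0.11 against 0.02 over all probes. Of 5 metabolic genes under Klf15, none was higher in OS and 2 were lower, Prodh, which degrades proline (log2 difference -1.40, adjusted p = 0.00195), and Slc2a4, a glucose transporter (-0.89, adjusted p = 0.0255).

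Klf3, a repressor that acts through the corepressor CtBP, had the smallest SE of the 7 genes that passed the F-test. It read 11.25 and 11.86 in ESCs, 12.96, 12.90, 13.57 and 13.69 in OS, and 12.54, 12.85 and 12.78 in CSE. The groups did not overlap, and their order was OS, CSE and ESCs, with CSE2 only just below OS3. Klf3 was higher in OS than in ESCs by 1.73 ± 0.29 (SE, limma adjusted p = 0.00207), 3.31-fold, a call that none of the 18 alternatives ended. It was higher in CSE than in ESCs by 1.17 ± 0.30 (adjusted p = 0.0183), 2.25-fold, and that call was lost without ESC1 (adjusted p = 0.127), CSE2 (0.0509) or CSE3 (0.0508). It was also lost when the arrays were scaled to their 75th percentile in place of quantile normalization (0.53, adjusted p = 0.364). Between OS and CSE the difference of 0.56 ± 0.25 was not called (adjusted p = 0.243).

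The 14 corepressors and modifiers that bind Kruppel-like factors included both CtBP genes. Ctbp1 was higher in OS than in ESCs (log2 difference 0.92, adjusted p = 0.00670) and Ctbp2 was lower (-2.19, adjusted p = 0.00010), and neither differed between OS and CSE by the test. Of the 14, 3 were higher and 3 lower in OS than in ESCs, and between OS and CSE only the acetyltransferase gene Kat2b was called, higher in OS by 1.47 (adjusted p = 0.00304).

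Klf7, known from sensory neuron development and axon growth, read 10.40 and 10.94 in ESCs, 11.28, 11.76, 12.03 and 12.19 in OS, and 11.15, 11.75 and 11.25 in CSE. OS and CSE overlapped and both lay above the ESC samples. Klf7 was higher in OS than in ESCs by 1.14 ± 0.30 (SE, limma adjusted p = 0.0203), 2.21-fold, and the difference of 0.71 ± 0.32 from ESCs to CSE was not called (adjusted p = 0.136). The OS call was lost in 4 of the 18 alternatives. Among them were the fits without ESC1 or OS4+5 (limma adjusted p = 0.0530 for the latter) and scaling to the 75th percentile (0.92, adjusted p = 0.0896). Over the 18 alternatives the log2 difference went down to 0.73. Of 7 genes listed as neuronal markers, 6 were lower in OS than in CSE, and their mean log2 level was 6.72 to 7.43 in OS and 10.76 to 11.92 in CSE. It was also 11.03 to 11.16 in ESCs, with none of the 7 called between CSE and ESCs, so the list does not single out neuronal RNA in these samples. Klf13, an activator of a chemokine gene in T cells, read 10.14 to 11.08 over all 9 samples, its groups overlapped, and it was called in no comparison (adjusted p of 0.955, 0.697 and 0.625 for OS against CSE, OS against ESCs and CSE against ESCs).

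Counted by comparison, 2 of the 10 genes were higher in OS than in CSE (Klf5 and Klf9), against 4.84% of all probes, and none was lower, against 6.19%. At an unadjusted p under 0.05 by limma, 5 were higher, against 10.4% of all probes, and none lower, against 12.0%. The lowest OS sample was above the highest CSE sample for 4 of 10 (Klf3, Klf5, Klf9 and Klf10), against 10.8% of all probes. Against ESCs, OS had 3 genes higher (Klf3, Klf6 and Klf7; 12.1% of all probes) and 1 lower (Klf2; 15.6%), and CSE had 1 higher (Klf3; 13.2%) and 4 lower (Klf2, Klf5, Klf9 and Klf10; 15.6%). The 3 comparisons share their samples, so the lists are not independent of each other.

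**Figure D2:**
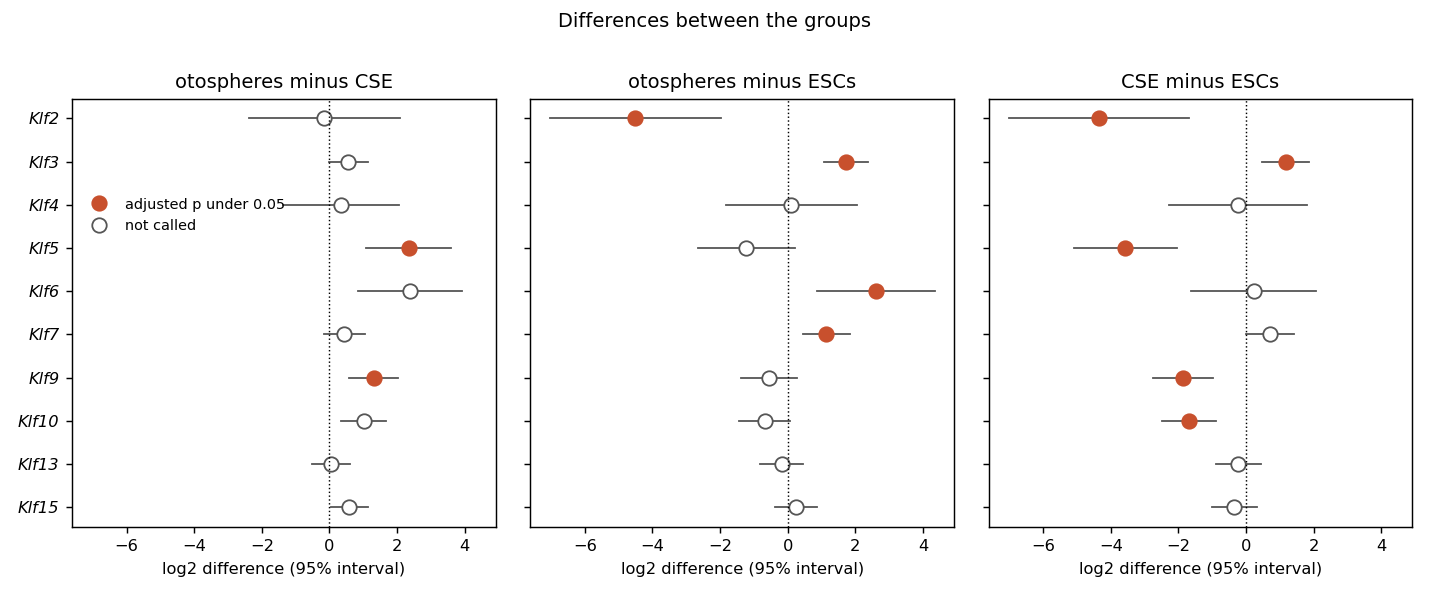
Log2 difference of each gene between 2 groups on the x axis, with its 95% interval from limma as a line and filled points where the adjusted p was under 0.05. The intervals of Klf2 and Klf4 span up to several log2 units, while those of Klf3, Klf7, Klf9 and Klf10 stay within 1 unit on each side.

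The 7 other Kruppel-like factors with a probe were mostly lower in OS than in ESCs. Between OS and CSE only Klf8 was called, lower in OS with a log2 difference of -1.02 (limma adjusted p = 0.00337). Against ESCs 4 were called lower in OS (Klf8 with -4.02, Klf16 with -1.60, Klf17 with -1.32 and Klf11 with -1.04) and none was called higher. Klf8, Klf11 and Klf17 were each well above background on 5 of the 6 OS arrays, as was Sp5. Of 9 Sp factors, which bind the same GC boxes, Sp5 was lower in OS than in CSE with a log2 difference of -3.25 (adjusted p = 0.0333), and Sp1, Sp2 and Sp6 were lower in OS than in ESCs. No member of either list was called higher in OS in either comparison.

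The partners of Klf2, Klf4 and Klf5 in naive pluripotency were mostly low in OS. Of 11 measured, 9 were lower in OS than in ESCs, with log2 differences of -8.71 in Pou5f1, -8.23 in Esrrb and -4.36 in Sox2, and their median difference was -4.36 against -0.03 over all probes. Pou5f1 was well above background on 1 and Esrrb on 5 of the 6 OS arrays, and 2 others of the list, Zfp42 and Prdm14, on none. The 1 that was higher was Stat3, the transcription factor that LIF activates, by 1.33 (limma adjusted p = 0.0158). Nanog, on the same probe as above, was not called. Stat3 was also higher in OS than in CSE by 1.87 (adjusted p = 0.00415), as was Tfcp2l1 by 1.50 (adjusted p = 0.0269), while Esrrb and Sox2 were lower than in CSE, with -3.52 and -2.76.

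Among 12 epithelial genes linked to Klf4 and Klf5, 10 were higher in OS than in CSE, against 4.84% of all probes. None was lower, against 6.19%, and the median log2 difference was 2.43 against 0.02 over all probes. This list, like the others, was chosen with earlier results of these data known, so its counts are not an independent test. The simple epithelial keratins Krt8, Krt18 and Krt19 were higher by 4.79, 3.75 and 2.57 (adjusted p of 0.00135, 0.000814 and 0.0397), the laminin chain Lamb3 by 5.39 (adjusted p = 0.00272) and the cornified envelope precursor Sprr1a by 4.53 (adjusted p = 0.00243). The cell cycle genes Ccnd1 and Cdkn1a were higher by 1.84 and 2.29. The mean log2 level of the 12 genes was 12.12 to 13.67 in OS, 10.28 to 10.66 in CSE and 10.51 to 11.36 in ESCs. The lowest OS sample for this mean was OS3, which was also the lowest OS sample for Klf2, Klf3, Klf4, Klf5, Klf6 and Klf13. The highest was OS6, which was also the highest for Klf2, Klf3, Klf4, Klf5, Klf7, Klf13 and Klf15. These ranks were thus not particular to Klf4 and Klf5. Against ESCs 8 of the 12 were higher in OS (12.1% of all probes) and none was lower (15.6%). OS also had higher levels of 3 of 6 smooth muscle and pericyte markers than CSE (Tagln by 6.23, Acta2 by 5.59 and Rgs5 by 3.84). Pdgfrb and Cspg4 of the same list read lower in OS than in CSE, with -0.88 and -1.02. Myh11 read 0.25 higher and was well above background on 2 of 6 OS arrays, and none of the 3 was called. Tagln and Acta2 also read 13.87 and 11.89 in ESCs, so they do not single out smooth muscle RNA in these samples. Within OS Tagln, Acta2 and Rgs5 were higher on slide 2 than on slide 1, by 3.30, 4.05 and 1.33 in that order. Between the slides Pdgfrb and Cspg4 went the other way, with -3.88 and -1.09. The part of smooth muscle and pericyte cells in the differences between OS and CSE was not tested.

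**Figure D3:**
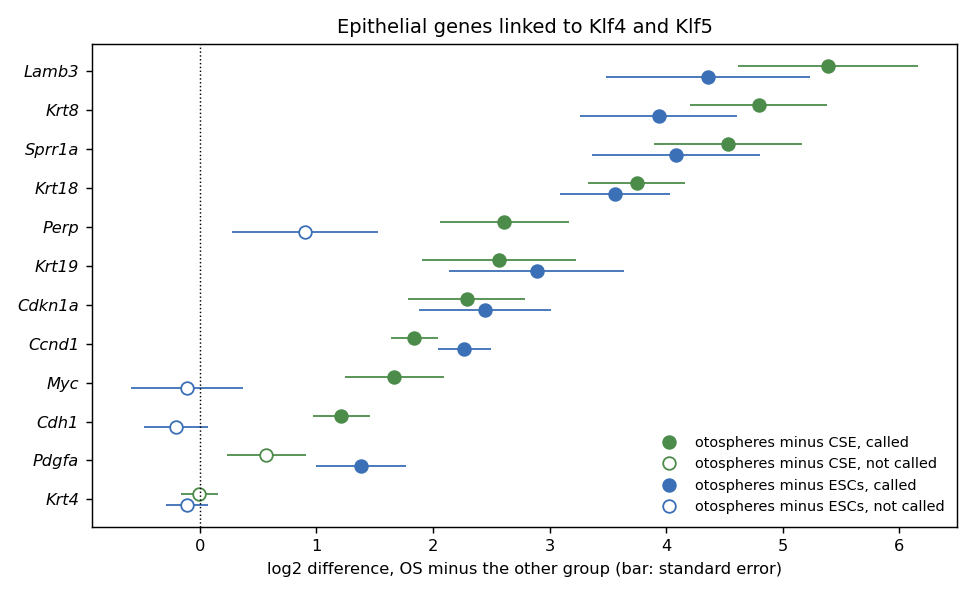
Log2 difference of 12 epithelial genes linked to Klf4 and Klf5, OS minus CSE (green) and OS minus ESCs (blue), with the SE as a bar and filled points where limma's adjusted p was under 0.05. For OS minus CSE 10 points are filled and lie to the right of 0, from Cdh1 to Lamb3, and Krt4 lies at 0.

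The genes of the TGF-beta early response, to which Klf10 belongs, went both ways. Ccn2 was higher in OS than in CSE by 3.58, Tgfb1 by 1.39 and Tgif1 by 1.03 on the log2 scale, and Id1 and Smad6 were lower, with -3.04 and -1.31. Id1 and Smad6 are better known as targets of BMP signalling. Of 6 axon growth genes linked to Klf4, Klf6, Klf7 and Klf9, Sprr1a and Gprin3 were higher in OS than in CSE and Stmn2, a neuronal gene, was lower with a log2 difference of -7.69 (well above background on 4 of 6 OS arrays).

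Klf2, Klf4 and Klf6 also differed between samples of the same group. For 8 of the 10 genes, all but Klf10 and Klf15, both OS samples of slide 2 were above both of slide 1, against 27.8% of all probes. The log2 difference was 2.29 for Klf2, 2.19 for Klf4, 1.60 for Klf5 and 1.37 for Klf6, differences larger than those of 98.4% to 99.7% of all probes, and 0.44 to 0.73 for Klf15, Klf7, Klf13, Klf3 and Klf9. None of the 10 passed limma's adjusted p of 0.05, which 0.0896% of all probes did, and 4 of 10 had an unadjusted p under 0.05 (Klf3, Klf4, Klf5 and Klf13), against 11.2%. Slide and culture batch cannot be told apart here. Cell type markers also differed between them. In OS1+2, OS3, OS4+5 and OS6 the mean log2 level of 6 hair cell markers was 7.79, 7.26, 8.86 and 9.41. That of 6 mesenchyme markers was 11.82, 12.49, 10.89 and 9.51 in the same order. The paper proposes that some cells of OS4-6 might have turned toward hair cells. The part of cell types in the slide differences of the 10 genes was not tested.

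The CSE samples split in the same genes. CSE3, on slide 2, exceeded the mean of CSE1 and CSE2 by 3.41 in Klf2, 2.44 in Klf6, 1.93 in Klf4 and 1.09 in Klf5 on the log2 scale, differences larger than those of at least 99.0% of all probes, and by -0.20 to 0.38 in the other 6 genes. The ESC samples did not follow: from ESC1 to ESC2 the differences were -0.17 in Klf2, -1.21 in Klf4, 0.06 in Klf5 and 0.37 in Klf6. ESC1 and ESC2 are different lines, so line and slide cannot be told apart in that group.

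**Figure D4:**
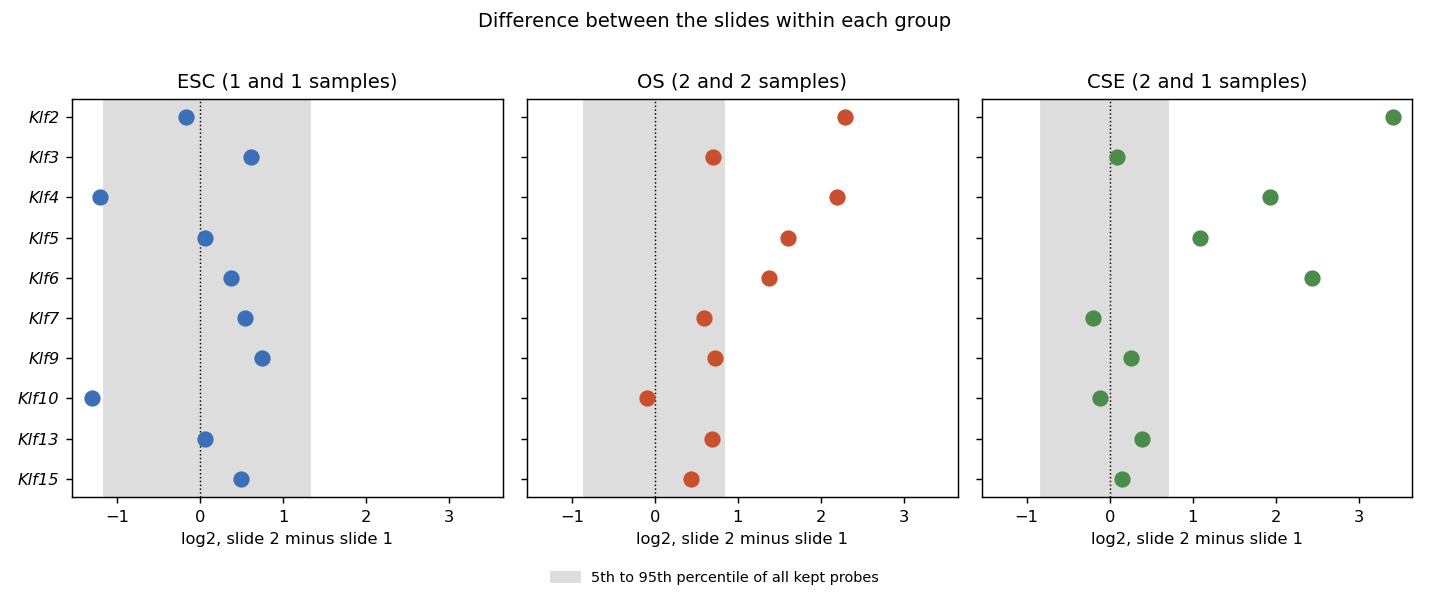
Log2 difference between slide 2 and slide 1 within ESC (1 and 1 samples), OS (2 and 2) and CSE (2 and 1) for each gene, with the 5th to 95th percentile of all probes in grey. Klf2, Klf4, Klf5 and Klf6 lie right of the grey band in OS and in CSE, and none does in ESC.

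Klf2, Klf4, Klf6 and Klf10 are themselves early response genes, which are induced within minutes to hours by serum, dissociation or stress, so the other immediate early genes were set beside them. In CSE3 all 14 of the 15 listed genes with a value were above the mean of CSE1 and CSE2, by a median of 3.58 on the log2 scale. Fos read 13.84 in CSE3 against 6.91 and 5.57 in CSE1 and CSE2, Fosb 13.44 against 6.93 and 6.03, and Atf3 11.31 against 6.39 and 5.74. The mean log2 level of the 14 genes was 11.89 in CSE3, 8.45 in CSE1, 7.88 in CSE2, 9.84 to 10.69 in OS and 8.92 to 9.36 in ESCs. In OS the same genes went both ways: 8 of 15 were higher on slide 2, with a median difference of 0.04. For Jun, Atf3, Nr4a1, Dusp1, Btg2 and Arc both OS samples of slide 2 were above both of slide 1. For Egr1 and Egr2 both were below. In ESCs 5 of 15 were higher on slide 2. Klf10, which shares the early response, was not higher in CSE3, where it read 10.46 against 10.63 and 10.51.

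Between OS and CSE 2 of the 15 immediate early genes were called, both higher in OS, Ier3 by 4.08 (adjusted p = 0.000908) and Junb by 2.46 (adjusted p = 0.00626). For Junb the CSE3 spot had an outlier flag and was dropped, so that value rests on CSE1 and CSE2. Their part in the levels of Klf2, Klf4 and Klf6 was not tested.

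**Figure D5:**
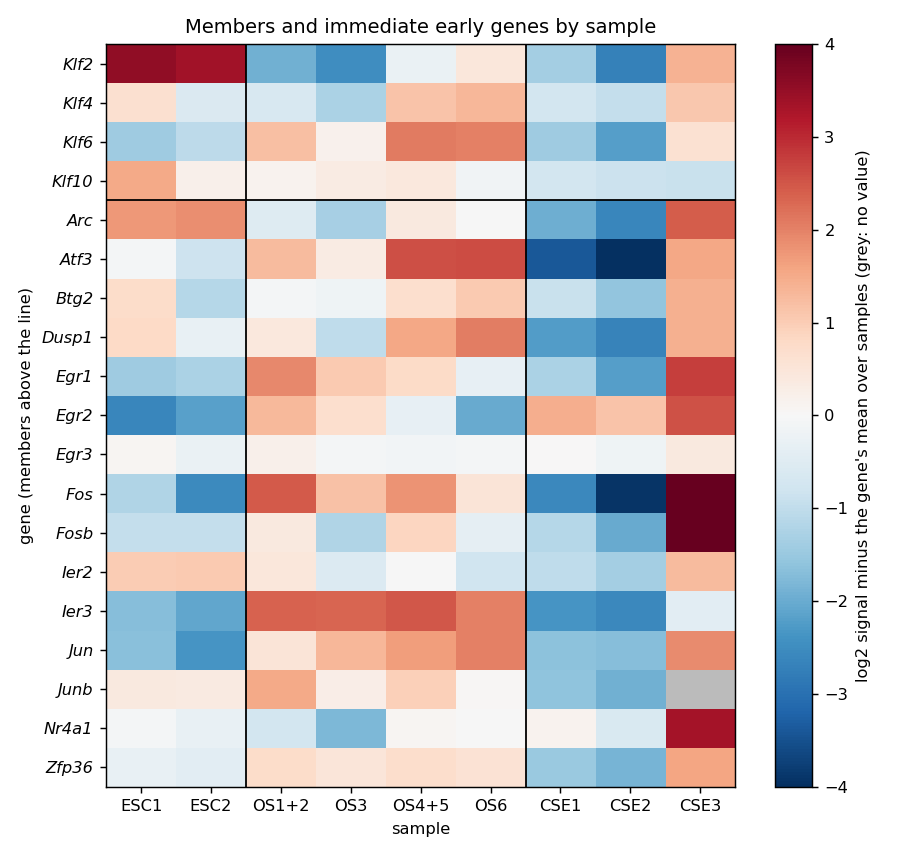
Distance of each sample from a gene's average log2 level over the 9 samples, in colour, for 4 Kruppel-like factors (above the line) and 15 immediate early genes (below it), with grey for the dropped spot. In the CSE3 column Klf2, Klf4 and Klf6 are red with most of the early genes, while Klf10 is blue.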

How the data were processed

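Cy3-labelled RNA of 11 samples was hybridized to one-colour Agilent arrays. The scanner files, as deposited, hold each spot's median signal intensity and local background on a linear scale from Feature Extraction 10.7.3.1, not normalized between arrays. A table of log2 values deposited beside them was background-corrected, quantile-normalized and filtered by the authors and served as an alternative.

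Intensities were background-corrected (normexp, offset 16), put on the log2 scale and quantile-normalized (all 11 arrays together) with limma 3.58.1 in R 4.3.3. Spots with an outlier flag were dropped and spots of a probe averaged. The filter on dim probes asked for a signal 10% or more over the negative controls' 95th percentile on 2 or more arrays, which 47997 of 55681 probes met. Gene symbols came from RefSeq accessions (26762 probes matched, 28919 did not). Array pairs within a group were compared with the spread between spots: 2 of 19 pairs were within it (ratio at most 0.849, the others at least 1.48) and were averaged.

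A limma model with 3 group means was fitted, p-values were adjusted after Benjamini and Hochberg over all 47997 probes, and the threshold was 0.05. On data simulated for these sample numbers it recovered 18 of 100 probes changed by 1 log2 unit and 58 of 100 changed by 2. These rates do not describe each of the 10 genes, whose SE ran from 0.24 (Klf15, OS minus CSE) to 1.18 (Klf2, CSE minus ESCs). Group by slide was tested in a model with 6 means. For a gene with several probes the brightest was used. All 10 genes are named, and genes of the lists where past the threshold or as examples; 1 listed gene is not reported here. The 10 genes and all lists were chosen with earlier results of these data known. The number of arrays limits the precision. The replicate numbers did not pair the samples (correlations of deviations -0.39 to 0.36). Alternatives were the offset, the scaling, the authors' table, the filter, arrays kept separate, the slide or the replicate number as a block, and leaving out each sample.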

Additional observations from a re-analysis of the deposited data

Results flagged for a closer look

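The difference between OS and ESCs in Klf4 went opposite ways on the 2 slides in every sample: -1.60 on slide 1 and 1.81 on slide 2, on the log2 scale, 3.40 apart (limma test of group by slide, adjusted p = 0.0370, which 1.83% of all probes passed). The difference between CSE and ESCs in Klf4 did the same, -1.48 and 1.66, 3.14 apart (adjusted p = 0.0681). In Klf6 CSE was 0.40 below ESC1 on slide 1, a difference of -0.40, and 1.66 above ESC2 on slide 2, 2.06 apart (adjusted p = 0.342). In Klf13 the difference between OS and ESCs was -0.49 and 0.14, 0.63 apart (adjusted p = 0.511). Each slide holds 1 ESC sample of its own line, so these tests take their spread from OS and CSE and assume that ESCs vary alike, and the line, the slide and the batch of culture cannot be told apart in these values. No OS sample stood apart from the other 3 by Dixon's criterion in any of the 10 genes.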

How the results depend on the processing

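Of the called differences, that of Klf3 between OS and ESCs and those of Klf5 and Klf10 between CSE and ESCs were past the threshold in all 18 alternatives. With the arrays scaled to their 75th percentile, the median difference of all probes shifted to -0.28 between OS and ESCs and to -0.25 between CSE and ESCs, from -0.03 and -0.06. With that scaling 1 gene was higher in OS than in CSE, 1 was higher in OS than in ESCs, 0 were higher in CSE than in ESCs, and 0 probes differed between the OS slides. Under it the log2 difference turned to -0.43 in Klf4 (OS against ESCs) and to -0.29 in Klf6 (CSE against ESCs), neither of them called. With every array as a separate sample, 3682 probes were higher in OS than in CSE in place of 2321, with 4 of the 10 genes, 2644 probes differed between the OS slides in place of 43, and Klf10 had a slide difference of 0.036. With the slide as a block, 4 of the 10 genes and 2449 of 47997 probes were higher in OS than in CSE, and the Klf13 difference was -0.020.

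The replicate numbers did not pair the samples. With every array separate and a replicate block, 0 of the 10 genes were higher in OS than in CSE, 1 was higher and 2 were lower in OS than in ESCs, and the log2 differences turned to -0.65 in Klf4 and -0.23 in Klf13 (OS against CSE), -1.10 in Klf4 and -0.24 in Klf15 (OS against ESCs) and -0.014 in Klf6 (CSE against ESCs).

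Leaving out 1 sample at a time gave 1281 to 2629 probes higher (1412 without OS4+5) and 1664 to 3340 lower in OS than in CSE, with 0 to 3 of the 10 genes higher. It gave 1 to 3 genes higher and 0 to 1 lower in OS than in ESCs, 0 to 1 higher and 2 to 4 lower in CSE than in ESCs, 4 to 7 past the F-test, and 0 to 633 probes between the OS slides (387 without OS1+2, 633 without OS4+5). Values that turned sign were all without a call in any of these fits. Between OS and CSE, Klf2 ran from -1.07 (without CSE2) to 0.98 (without CSE3), with 0.13 without OS1+2 and 0.32 without OS3, Klf4 from -0.063 to 0.98, and Klf13 from -0.084 to 0.23, with -0.035 without OS4+5. Between OS and ESCs, Klf4 ran from -0.50 to 0.71, with -0.22 without OS4+5, and Klf15 from -0.0071 to 0.49. Between CSE and ESCs, Klf4 ran from -0.87 to 0.37 and Klf6 from -0.59 to 0.82. The slide difference of Klf10 ran from -0.39 to 0.20, with -0.0024 without OS3. Each cause was not tested. The 2 ESC samples and the small groups limit what could be called, and all 10 genes were well above background on every array.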
